A study of Populus trichocarpa with 378 samples.

Results

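The 200 genes described here were those whose transcript abundance differed most between batches of wildtype trees, among 41334 genes counted in the stem-differentiating xylem of *Populus trichocarpa* (black cottonwood). They were chosen on the 18 wildtype libraries alone, which comprise 3 libraries in each of 6 batches of trees planted and harvested at different times. Abundance was expressed as CPM, the counts of a gene scaled to a common library size (counts per 1e6) after scaling by the trimmed mean of M values (TMM). For each gene, the log2 ratio of the highest to the lowest of the 6 batch means, with 1 CPM added to both, was reduced by the largest ratio of this kind among the 3 libraries within any batch. A mean of 5 CPM or more over the 18 wildtype libraries was required, which 18930 genes met, and of these the 200 with the highest difference were kept. The wildtype values of these genes are therefore a description, and no test was made on them. The tests below used only the 360 transgenic libraries, which took no part in the choice.

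Trees of the genotype Nisqually-1 had been transformed with 45 constructs driven by the xylem-specific promoter of a 4-coumarate:CoA ligase gene, and both these and wildtype trees were kept 6 months in the greenhouse. Each library is a pool of 3 to 5 clonally propagated trees, and the transgenic pools come from independent lines of each construct, so that pools of a line share their transgene insertion. Of the transgenic libraries, 248 carry constructs against (or, for CAD, also for) genes of monolignol biosynthesis, and 112 carry constructs against regulators of the MYB, LIM and KNOX families. Batch 1 holds the knockdowns of PAL1 (a1), PAL3 (a2) and PAL2, PAL4 and PAL5 together (i7), and the overexpression of CAD2 (o67). Batch 2 holds PAL knockdowns, with the targets PAL4 (a3), PAL5 (a4), PAL2 (a5), PAL1 and PAL3 (i6) and PAL1 to PAL5 (i8). Batch 2 also holds regulator knockdowns, with the targets LIM1 (a40), LIM2 (a41), LIM1 and LIM2 (i42), MYB167 (a43), MYB090 (a44), MYB090 and MYB167 (i45) and MYB221 (a47). Batch 3 holds knockdowns of C3H3 (i20), CAD1 (i33), CAD2 (i34), CAD1 and CAD2 (i35) and C3H3, C4H1 and C4H2 (i69), and 2 constructs that lower CAD1 and overexpress CAD2 (o65 and o66). Batch 4 holds knockdowns of C4H1 (a10), C4H2 (a9), CCR2 (i26) and MYB156 (a46). Batch 5 holds knockdowns of HCT1 (a17), HCT6 (a18), both HCT genes (i19), CCoAOMT1 (a22), CAld5H1 (a27), CAld5H2 (a28), both CAld5H genes (i29), MYB021 (a52), MYB003 (a54), KNOX1 (i50) and MYB003 and MYB020 (i56). Batch 6 holds knockdowns of 4CL3 (a12), 4CL5 (a13), both 4CL genes (i15), CCoAOMT3 (i21), CCoAOMT1 and CCoAOMT2 (i24), AldOMT2 (i30) and MYB002 and MYB021 (i53).

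Stem-differentiating xylem is the layer of young wood cells scraped from a debarked stem, in which fibers and vessel elements deposit secondary walls and synthesize monolignols, the precursors of lignin. Trees grown and harvested at different times can differ in season and handling, and the wildtype trees of a batch are the usual reference for the transgenics planted with them. A gene whose level moves between wildtype batches therefore moves the reference that its transgenics are set against. The identifiers of the 200 genes were not paired with gene names or functions in the sources used here, so they are described by their identifiers and patterns. In bulk tissue, a lower abundance may reflect fewer cells of a type or less RNA per cell, and the 2 cannot be told apart.

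Library totals ranged between 2.12 and 93.5 M counts (M, 1e6 counts), with 4.57 to 93.5 M in wildtype, and the 200 genes held 0.180 to 2.51% of the counts of a wildtype library. In batch 1, the libraries a1-8-1 (39.4 M counts) and a2-3-2 (22.2 M) stood apart from the other 27 transgenic libraries (3.28 to 9.55 M) and from the wildtype (5.58 to 5.89 M). In batch 2, the libraries of PAL constructs held 13.4 to 45.96 M, those of regulator constructs 2.12 to 15.4 M and the wildtype 4.57 to 9.08 M. The same libraries also differed in how often neighbouring genes had equal counts, a measure taken over genes outside the 200 and at 20 counts or more, with counts within 2% of each other called equal. The share of equal neighbouring pairs was 1.97 and 1.77% in a1-8-1 and a2-3-2, against 1.02 to 1.55% in the other transgenic libraries of batch 1. It was 1.55 to 2.80% in the PAL libraries and 1.10 to 2.26% in the regulator libraries of batch 2, and 1.64 to 2.66% in the transgenic libraries of batch 3. In transgenic libraries it was 1.65 to 2.40% over batches 4 and 5 and 1.19 to 1.69% in batch 6. In wildtype it was 1.86 to 2.36% over batches 3, 4 and 5 and 1.24 to 1.71% over batches 1, 2 and 6, without overlap. The share of equal pairs in wildtype thus split the batches in the same way as the largest gene pattern below. Depth moved with the share of equal pairs and the batch in part of the data. The part of all 3 in the results was not tested. The check of each construct on its own target was not made, because no identifier could be assigned to a target.

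In wildtype, the 6 batch means of a member spanned a log2 ratio of 2.57 to 8.50 (median 4.69), whereas the largest ratio among the 3 libraries within a batch was 0.496 to 4.88 (median 1.55). The difference of both, which ranked the genes, ran between 2.03 and 5.19 with a median of 2.67. Just inside the limit stood Potri.005G093800 and Potri.012G025900 (2.04 each) and Potri.012G026000 (2.03), and just outside it Potri.002G119300 (2.02), Potri.010G020300 and Potri.009G030800 (2.01 each). The members were not highly abundant genes, with a median of 17.4 CPM (5.12 to 985) beside 21.9 CPM for all 18930 genes of at least 5 CPM. Batch 4 held the highest wildtype mean for 129 of the 200 genes, batch 5 for 36, batch 1 for 16, batch 2 for 9, batch 3 for 8 and batch 6 for 2. The lowest mean was in batch 6 for 78 genes, in batch 1 for 63, in batch 2 for 44, in batch 3 for 8, in batch 4 for 5 and in batch 5 for 2. Where batches tied, the one with the lowest number was taken, as for Potri.001G412500, at 0 CPM in wildtype of batches 5 and 6. These counts and some tested pairs of batches depend on that order. Some members had no count at all in the 3 wildtype libraries of a batch, namely 16 in batch 1, 19 in batch 2, 9 in batch 6, 1 each in batches 3 and 5 and 0 in batch 4.

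To describe the patterns, the 6 wildtype means of each gene were sorted and split at their largest gap, which puts some batches on an upper and the others on a lower side. By rows, the pattern with the most genes was that of 104 of the 200, which had batches 3, 4 and 5 on the upper side and batches 1, 2 and 6 on the lower. A further 28 genes were high in batch 4 alone, and 19 were high in every batch but 6. Many of these rows had almost the same counts as a neighbour, as given below, and with 1 row per set of such rows these patterns held 16, 14 and 13 of 87. The next patterns were 7 genes low in batch 3 alone, 6 genes high in batches 1, 3 and 4, 5 high in batches 3 and 4 and 5 high in batch 3 alone. The other 26 genes fell into 11 patterns of 4 genes or fewer, among them 4 high in batch 1 alone, 3 high in batches 2, 5 and 6 and 2 high in batches 1 and 2. The heat map of the wildtype libraries shows these groups as blocks of rows.

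**Figure D1:**
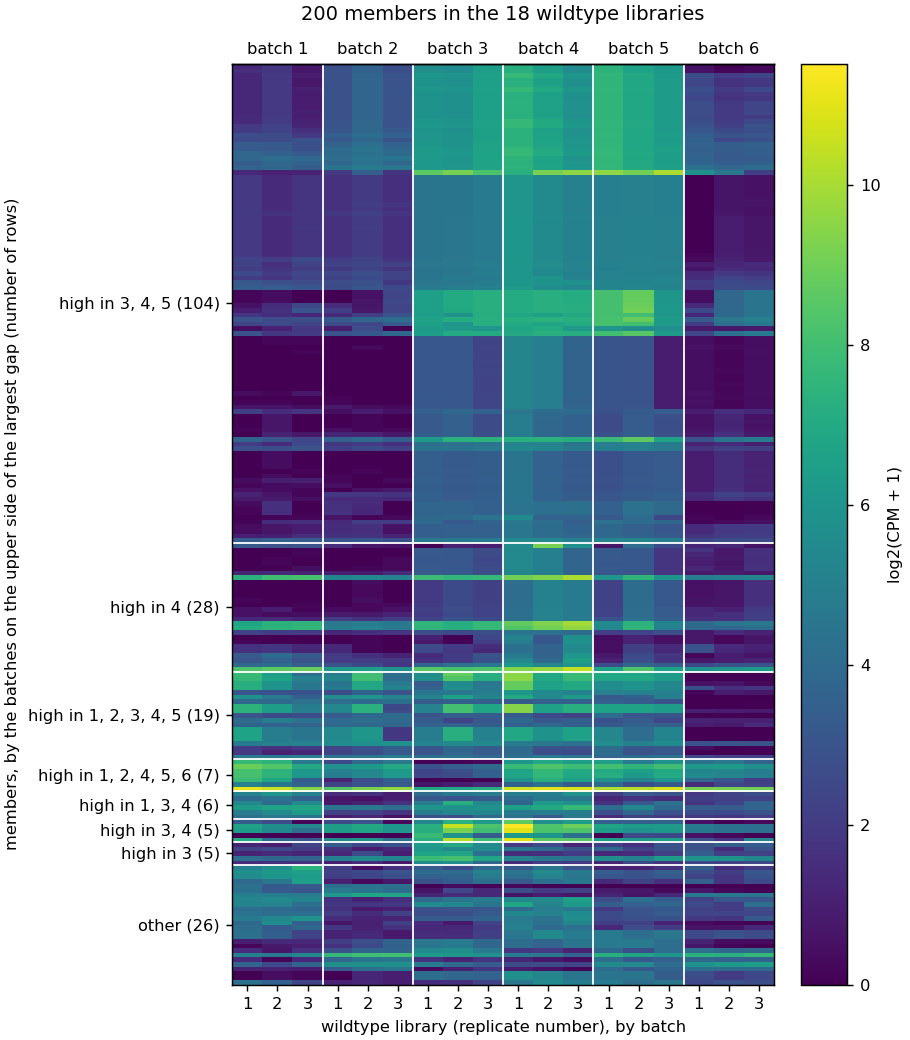
Heat map of log2(CPM + 1) for the 200 members (rows) in the 18 wildtype libraries (columns, 3 for each of 6 batches), with rows grouped by the batches on the upper side of their largest gap. The block of 104 genes is bright in batches 3, 4 and 5 and dark in batches 1, 2 and 6, and these are the values that chose the genes.

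The 200 rows are not 200 independent measurements, because many neighbouring genes had almost the same counts over the 378 libraries. When 2 rows were joined if the summed difference of their counts over the 378 libraries was at most 5% of their summed counts, the 200 rows fell into 87 sets, of which 19 held several rows (132 in all) and 68 held 1. The largest set ran over 26 rows between Potri.005G015700 and Potri.005G018600 within 30 consecutive rows of the table. A set of 23 rows lay between Potri.018G119700 and Potri.018G122600 and a set of 22 rows between Potri.018G116400 and Potri.018G119100, close to each other. Rows could be joined through other rows, so 2 rows of the set of 23 differed by up to 0.144 of their summed counts. Smaller runs were 11 rows between Potri.003G025600 and Potri.003G027300, 9 between Potri.001G040300 and Potri.001G041100, 8 between Potri.019G121500 and Potri.019G122500 and 5 between Potri.003G027500 and Potri.003G027900. Near-identical counts of this kind were rare elsewhere: among pairs of neighbouring rows that both were members, 86 of 100 (86%) met the limit, against 118 of 9624 (1.23%) of the pairs without a member. Since rows with the same counts pass or fail the rule together, part of this difference follows from the choice. The members were also unevenly spread, since 51 of them (25.5%) carried a Potri.018 identifier, beside 4.04% of all genes of at least 5 CPM. A further 36 (18%) carried a Potri.005 identifier, beside 6.62% of those genes. How the authors' counting treated reads that overlap or match several genes is not given in the sources used here, so the levels of single genes in such a run are uncertain. The main counts below are also given with 1 row per set or with the number of sets.

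The 104 genes that were high in wildtype batches 3, 4 and 5 belong to 17 sets, and rows of a set move together because they share almost all counts. For each library, the share of these genes above the midpoint of their wildtype gap was counted. Pattern and midpoint both come from the wildtype means, so the wildtype shares largely follow from the choice and are a description. In batch 3 the share was 88.5 to 100% in the 56 transgenic libraries, against 100% in each wildtype library. In batch 4 it was 55.8 to 100% in monolignol constructs and 92.3 to 100% in regulator constructs, against 100% in each wildtype library. In batch 5 the shares were 49.0 to 100% and 82.7 to 100% in monolignol and regulator constructs, against 84.6 to 100% in wildtype. The median library of each of these groups had all 104 genes on the upper side. In batch 6, by contrast, the shares were 0 to 23.1% in monolignol and 0 to 4.81% in regulator constructs, against 0% in each wildtype library. Over the 16 sets, each counted once by its row of highest rank, the shares were 81.2 to 100% in batch 3, 62.5 to 100% and 93.8 to 100% in monolignol and regulator constructs of batch 4 and 56.2 to 100% and 93.8 to 100% in those of batch 5. In batch 6 they were 0 to 31.2% and 0 to 6.25%. Transgenic libraries held 9.46 to 67.4 M counts in batch 3 and 5.38 to 61.9 M in batch 4. Those of batch 5 held 5.66 to 32.3 M and those of batch 6 held 7.02 to 25.7 M. In monolignol constructs of batches 3 to 6 the medians were 26.7, 22.9, 14.9 and 16.5 M. The part of depth and of the share of equal pairs in this split was not tested.

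Batches 1 and 2 were not uniform. In batch 1, the share was 0 to 9.62% in 27 transgenic libraries and 0% in each wildtype library, but it was 100% in a1-8-1 and 99.0% in a2-3-2. Those 27 libraries include the PAL knockdowns a1, a2 and i7 as well as o67. In batch 2, it was 84.6 to 100% in the 27 libraries of PAL constructs and 0 to 9.62% in the 63 libraries of regulator constructs, against 0% in each wildtype library. Over the 16 sets it was 93.8 to 100% in PAL and 0 to 12.5% in regulator libraries of batch 2, and 0 to 12.5% in the 27 libraries of batch 1. On these genes, the PAL libraries and the wildtype libraries labelled as the same batch thus lay on opposite sides, without overlap, where the side of the wildtype was set by the choice of genes. Batches are given as labelled, and the PAL libraries of batch 2 as well as a1-8-1 and a2-3-2 lay on the side of batches 3 to 5. Whether these trees were planted and harvested with the wildtype of their label cannot be told from the values. The plot of libraries shows the 2 libraries of batch 1 and the PAL libraries of batch 2 next to the totals of the same libraries.

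**Figure D2:**
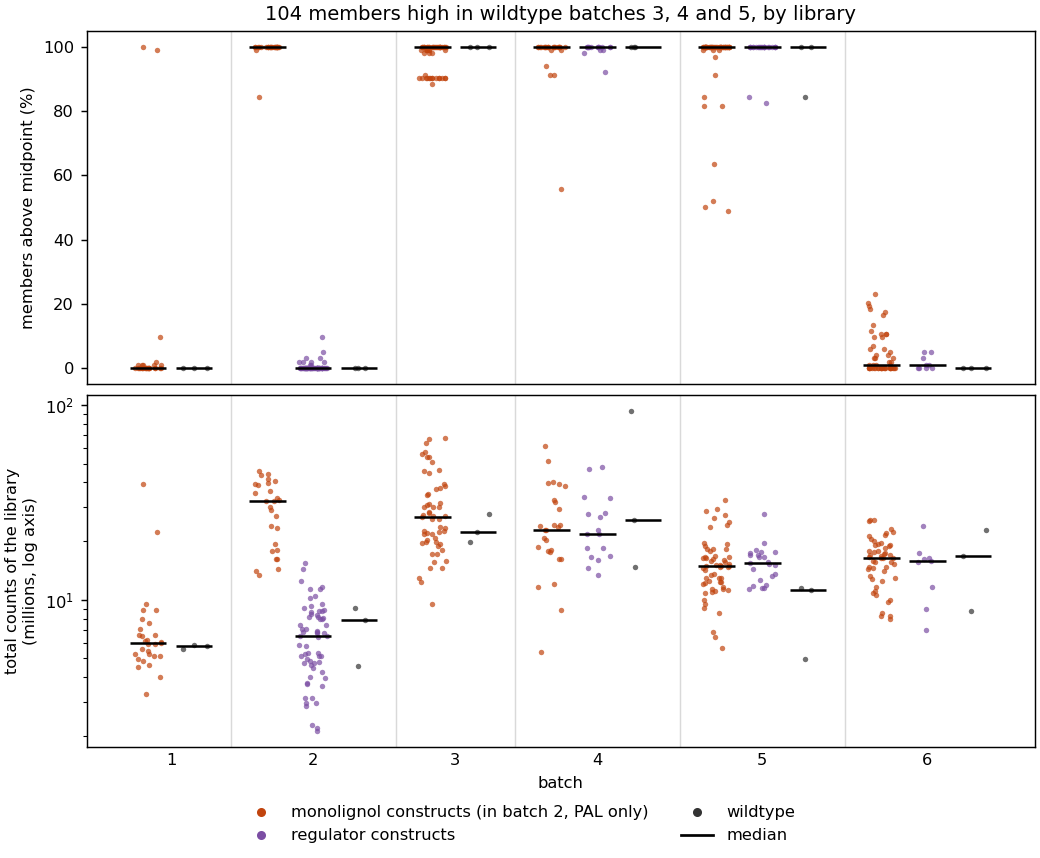
For each of the 378 libraries (points, grouped by batch, with transgenic libraries left of wildtype), the share of the 104 genes above the midpoint of their wildtype gap in percent (top) and the total counts of the library in M on a log axis (bottom), with bars for the medians. The 27 PAL libraries of batch 2 sit at 84.6% or more while the 63 regulator libraries sit at 9.62% or less, and 2 libraries of batch 1 sit at 99.0 and 100%.

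Of the genes high in batches 3, 4 and 5, the one ranked highest was Potri.018G122600, the last row of the set of 23 (CPM of single genes are from here on scaled over all 378 libraries). In transgenic trees of batch 5, where its wildtype mean was highest, it lay between 3.64 and 456 CPM (median 131) in monolignol constructs and between 50.9 and 183 CPM (median 107) in regulator constructs. In batch 6, where its wildtype mean was lowest, it lay between 0 and 0.547 CPM (median 0.114) in monolignol constructs and between 0 and 0.179 CPM (median 0) in regulator constructs. The transgenic libraries of both batches did not overlap. Its wildtype values were 166, 101 and 68.1 CPM in batch 5 and 0.456, 0 and 0.164 CPM in batch 6. In batch 2 it lay between 128 and 493.5 CPM (median 218) in PAL constructs and between 0 and 10.3 CPM (median 3.52) in regulator constructs, against 6.13, 10.9 and 5.72 CPM in wildtype. It stood at 45.3 CPM in a1-8-1 and 105 CPM in a2-3-2, against between 0 and 3.40 CPM (median 0.835) in the other transgenic libraries of batch 1. In batch 6 this gene does not stand for its set. There it held 127 counts over the transgenic libraries, beside 7453 for Potri.018G119800 of the same set.

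Potri.002G189100, a gene in a set of its own, reached higher levels in the same pattern. It lay between 3.27 and 1389 CPM (median 753) in monolignol constructs of batch 5, between 153 and 1054 CPM (median 505) in those of batch 4 and between 36.4 and 1409.6 CPM (median 291) in those of batch 3. In batch 2 it lay between 116 and 1148 CPM (median 531) in PAL constructs and between 0 and 8.27 CPM (median 1.402) in regulator constructs, against 2.88, 10.1 and 2.38 CPM in wildtype, so that the 2 kinds of construct did not overlap. In batch 1 it lay between 0 and 4.42 CPM (median 1.33) in 27 transgenic libraries, against 1.42, 1.05 and 1.14 CPM in wildtype, whereas a1-8-1 and a2-3-2 had 148 and 307 CPM. Batch 6 took a place in between, with values between 0 and 73.8 CPM (median 10.3) in monolignol constructs, against 59.8, 22.6 and 3.29 CPM in wildtype.

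Potri.005G018400 stands for the set of 26 rows. It lay between 21.96 and 76.0 CPM (median 38.7) in monolignol constructs of batch 4 and between 0 and 8.02 CPM (median 0.342) in those of batch 6, against wildtype values of 62.5, 42.01 and 31.4 CPM in batch 4 and 0, 0.563 and 0.452 CPM in batch 6. In batch 2 it lay between 14.5 and 93.6 CPM (median 46.1) in PAL constructs and between 0 and 6.66 CPM (median 1.83) in regulator constructs, against 2.13, 2.85 and 1.91 CPM in wildtype. The PAL libraries thus lay above all regulator libraries and overlapped with the transgenic libraries of batch 4. Potri.019G122100, of the set of 8 rows, lay between 6.10 and 783 CPM (median 225) in monolignol constructs of batch 5, against 269, 475 and 66.3 CPM in wildtype. In batch 2 it lay between 133 and 580.0 CPM (median 239.8) in PAL constructs and between 0 and 37.0 CPM (median 1.17) in regulator constructs, against 1.75, 0.594 and 4.29 CPM in wildtype, so that both kinds were again apart.

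The gene with the highest rank of all, Potri.005G139000, had the opposite pattern and was high in batches 1, 2 and 6. In transgenic trees it lay between 19.9 and 113 CPM (median 63.1) in regulator constructs of batch 2, between 17.5 and 58.4 CPM (median 28.5) in 27 libraries of batch 1 and between 6.11 and 40.8 CPM (median 30.1) in monolignol constructs of batch 6. It lay between 0.305 and 2.23 CPM (median 1.04) in transgenic trees of batch 3, between 0.292 and 2.18 CPM (median 0.702) in monolignol constructs of batch 4 and between 0.149 and 1.93 CPM (median 0.697) in those of batch 5. None of the transgenic libraries of batches 3 to 5 reached the lowest of batch 6 or of the regulator constructs. The exceptions were again the PAL constructs of batch 2, between 0.664 and 2.03 CPM (median 1.01), against 70.9, 108 and 103 CPM in wildtype of that batch, and the libraries a1-8-1 and a2-3-2 with 1.41 and 1.14 CPM.

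Potri.001G412500, high in wildtype batches 1 and 2 alone, behaved likewise. It lay between 3.64 and 488 CPM (median 14.9) in regulator constructs of batch 2 and between 4.64 and 118 CPM (median 13.6) in 27 libraries of batch 1. It lay between 0 and 0.388 CPM (median 0.0763) in PAL constructs of batch 2, against 18.02, 19.6 and 17.9 CPM in the wildtype of that batch. In batches 3 to 6 no transgenic library exceeded 2.88 CPM, and in batch 6 the highest value was 0.066 CPM.

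For other members, PAL and regulator libraries of batch 2 overlapped. Potri.017G120200, high in every batch but 6, lay between 8.31 and 16.3 CPM (median 12.8) in PAL constructs and between 7.02 and 33.3 CPM (median 17.3) in regulator constructs of batch 2, against 16.3, 13.9 and 18.1 CPM in wildtype. In the 60 transgenic libraries of batch 6 it had 22 counts in all, with a highest value of 0.113 CPM in monolignol and 0.136 CPM in regulator constructs, against 0, 0 and 0.0411 CPM in wildtype. No transgenic library of another batch fell below 5.85 CPM. Potri.T004700, high in batches 2, 5 and 6, lay between 12.0 and 39.4 CPM (median 23.9) in PAL constructs and between 2.34 and 48.5 CPM (median 23.3) in regulator constructs of batch 2, against 12.9, 20.8 and 23.4 CPM in wildtype. It lay between 0.0561 and 3.16 CPM (median 0.883) in monolignol constructs of batch 4, against 1.38, 0.675 and 0.314 CPM in wildtype.

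**Figure D3:**
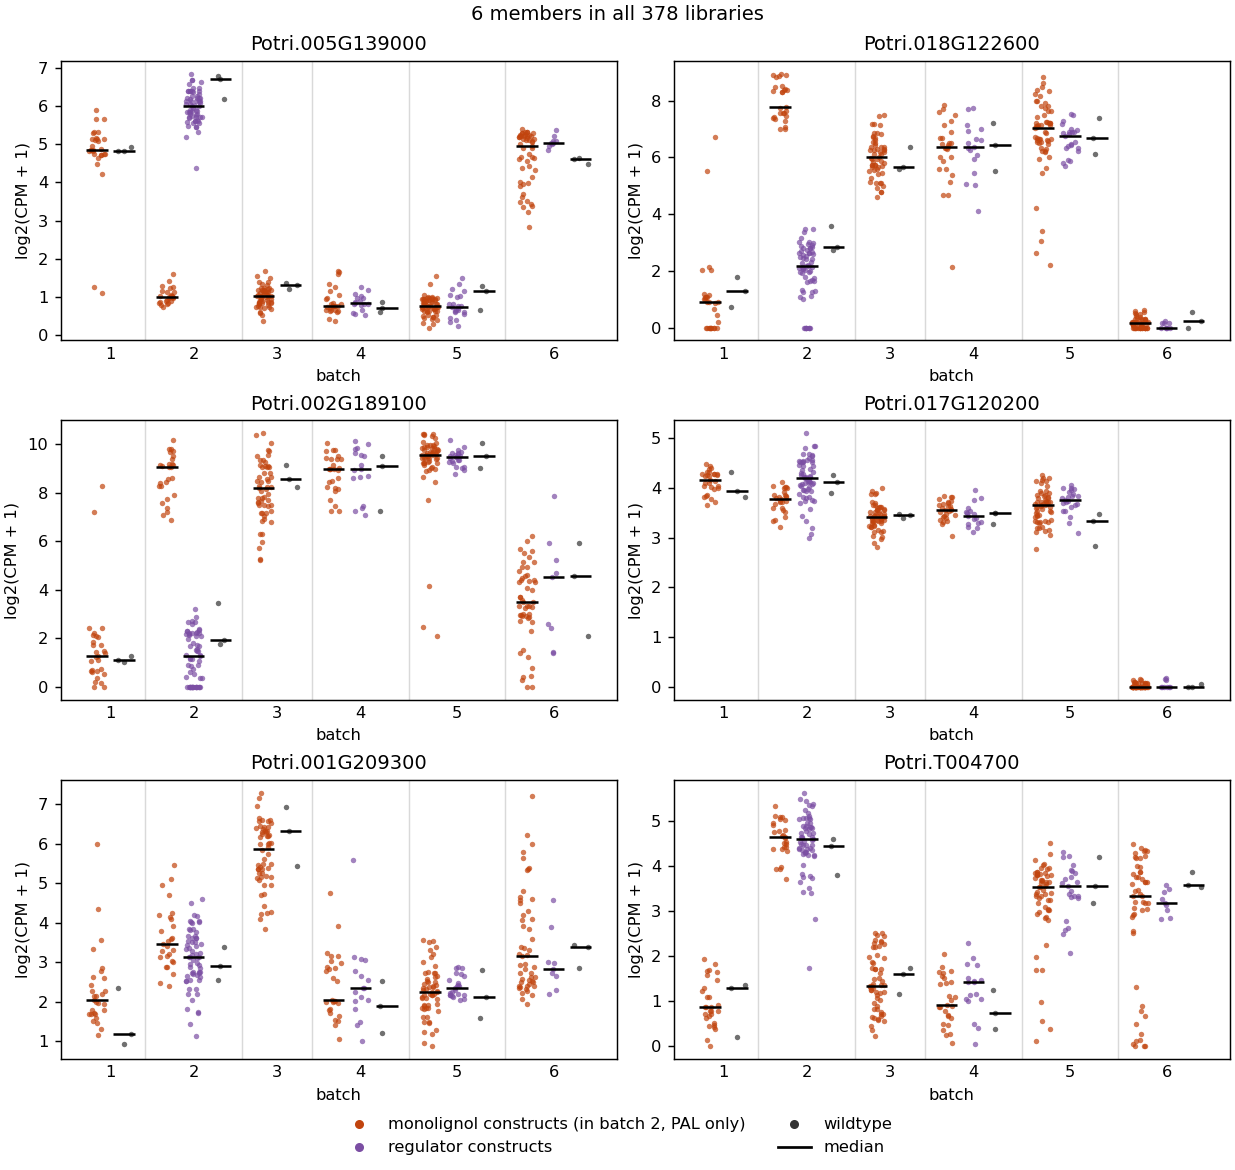
log2(CPM + 1) of 6 members in the 378 libraries (points), by batch, with transgenic libraries left of wildtype and bars for the medians. Potri.018G122600 and Potri.002G189100 are high and Potri.005G139000 is low in the PAL libraries of batch 2, whereas Potri.017G120200 is near 0 only in batch 6 and Potri.T004700 has PAL and regulator libraries that overlap.

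Several members varied widely within a batch as well. Potri.014G186200, which had no count in the 3 wildtype libraries of batch 6, lay between 19.7 and 29815 CPM (median 261) in monolignol constructs of batch 4, against 711, 112 and 214 CPM in wildtype. In batch 2 it lay between 0 and 32130.5 CPM (median 34.6) in regulator constructs, against 28.4, 237 and 17.4 CPM in wildtype. In batch 6 it had a median of 0 in both kinds of construct, and a single monolignol library, i24-5-1, had 488 CPM. Its libraries thus spread over several orders of magnitude within 1 batch. Potri.016G057400, high in batch 4 alone, lay between 3.43 and 646 CPM (median 33.9) in monolignol constructs of batch 4 and between 0 and 114 CPM (median 1.23) in transgenic trees of batch 3, against wildtype values of 45.3, 555 and 59.3 CPM in batch 4 and 0, 1.07 and 0.918 CPM in batch 3. The libraries of both batches overlapped. Potri.014G185600, high in every batch but 6, lay between 13.3 and 14356 CPM (median 63.4) in monolignol constructs of batch 4, against 434, 93.9 and 125 CPM in wildtype. In batch 6 it lay between 0.0927 and 3622 CPM (median 0.825) in monolignol and between 0.122 and 309 CPM (median 0.516) in regulator constructs, against 0.456, 0.563 and 0.164 CPM in wildtype. The highest value of each kind was that of a single library, a13-6-2 and i53-7-1.

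The remaining members of this description differed in the batches where they were high or low. Potri.001G209300 was high in batch 3, where it lay between 13.4 and 156 CPM (median 57.8) in transgenic trees, against 78.9, 121 and 41.9 CPM in wildtype. Potri.015G074600 was high in batch 1, where it lay between 1.15 and 244 CPM (median 19.4) in transgenic trees, against 31.0, 53.5 and 167 CPM in wildtype. Potri.002G188000 was low in batch 3 alone, where it lay between 0 and 10.6 CPM (median 0.405) in transgenic trees, against 0.0448, 0.0534 and 0.184 CPM in wildtype. The highest transgenic library of batch 3 for Potri.002G188000, at 10.6 CPM, was below the median of the transgenic libraries of batch 1 (61.4 CPM). Potri.002G087000, high in batches 2, 5 and 6, lay between 1.26 and 98.6 CPM (median 52.4) in monolignol constructs of batch 6 and between 1.29 and 16.7 CPM (median 5.62) in those of batch 4, against wildtype values of 58.1, 70.4 and 81.1 CPM in batch 6 and 5.27, 5.12 and 3.95 CPM in batch 4. Potri.004G029400, low in batch 6 alone, lay between 14.1 and 44.4 CPM (median 30.1) in transgenic trees of batch 1 and between 2.28 and 12.9 CPM (median 4.65) in monolignol constructs of batch 6, without overlap, against wildtype values of 27.2, 26.7 and 31.2 CPM in batch 1 and 4.56, 3.71 and 3.66 CPM in batch 6. Potri.018G109700, high in batches 1, 3 and 4, lay between 16.4 and 67.6 CPM (median 32.2) in transgenic trees of batch 1 and between 0.593 and 8.19 CPM (median 2.26) in regulator constructs of batch 2. Potri.005G093800, high in batches 2, 5 and 6, lay between 0 and 25.3 CPM (median 10.5) in monolignol constructs of batch 6 and between 0 and 1.96 CPM (median 0.732) in those of batch 4, against wildtype values of 17.3, 15.4 and 15.0 CPM in batch 6 and 0.903, 0.462 and 0.126 CPM in batch 4. Potri.009G156700 was high in batch 3, between 4.50 and 140.2 CPM (median 47.5) in transgenic trees, but also in PAL constructs of batch 2, between 10.0 and 199 CPM (median 58.9), where regulator constructs lay between 0.593 and 5.65 CPM (median 2.07) and wildtype had 2.25, 0.831 and 1.43 CPM.

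Whether the members differed between batches in trees that had not been used to choose them was tested on the transgenic libraries, with the counts summed over each construct and the 45 constructs as replicates (edgeR, quasi-likelihood F test). Each construct was in a single batch, so in these tests the batch and its set of constructs cannot be told apart. The F test over the 6 batches passed an adjusted p of 0.05 for all 200 members and for 88.6% of the 34496 genes tested, so that most genes differed between batches. A narrower question is whether the batch that was highest in wildtype also exceeded, in transgenic trees, the batch that was lowest in wildtype. For 139 of the 200 genes it did at an adjusted p under 0.05, where 59.9% of 34434 genes did so for their own pair of batches, and with 1 row per set 75 of 87 did. Each set was counted by its row of highest rank, the row that the rule favoured most. The higher share with 1 row per set may therefore follow in part from the choice. The opposite direction was called for 0 members and for 0.982% of all genes. In sign, all 200 members went the way of wildtype, beside 89.3% of all genes, but with monolignol constructs only, where batch 2 holds PAL constructs alone, 179 did, beside 87.1%. The median log2 fold change was 3.47 over the members and 0.53 over all genes tested.

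Without the libraries a1-8-1 and a2-3-2 and the PAL constructs of batch 2, all 200 members were called in the direction of wildtype, beside 60.6% of all genes, and with 1 row per set all 87. These libraries were left out because of their values on the members themselves, so part of this rise follows from the choice, and the counts without them are a description. The median log2 fold change was then 5.12 over the members and 0.54 over all genes. Without the 2 libraries alone 177 were called, and without the PAL constructs alone 198. The difference lay mostly with the 104 genes high in batches 3, 4 and 5, of which 55 were called with all constructs (median 2.69) and 104 without these libraries (median 5.51), or 11 and 16 of the 16 with 1 row per set. Of the 28 genes high in batch 4 alone, 20 were called with all constructs and 28 without, while the 19 genes high in every batch but 6 were called in both cases. The plot of fold changes gives both settings side by side.

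**Figure D4:**
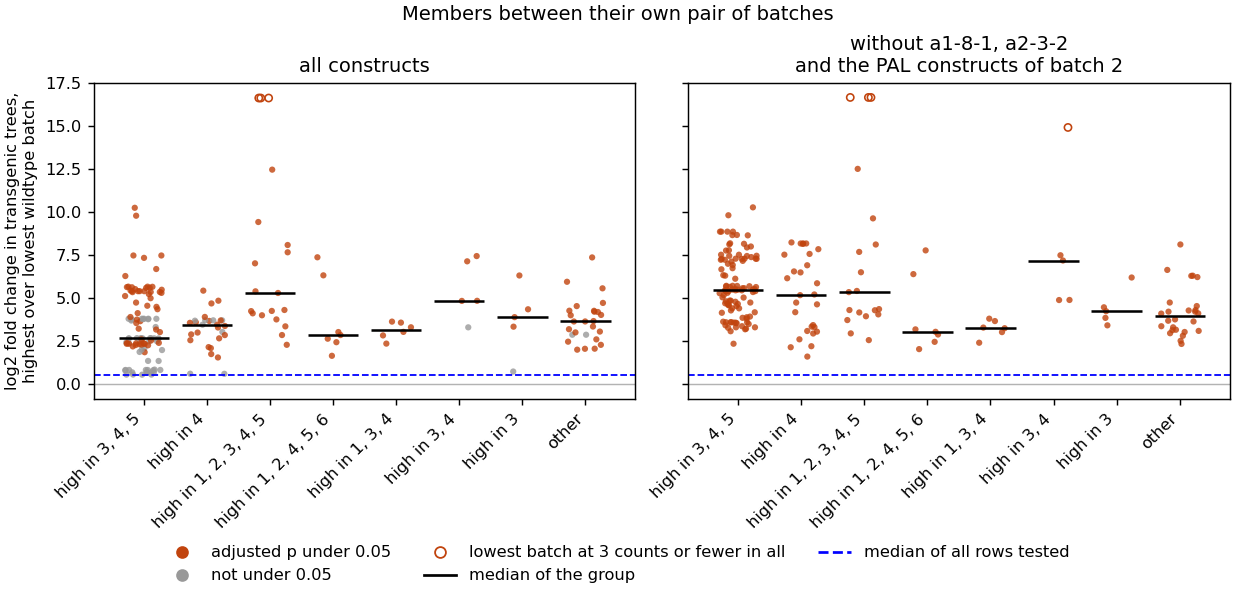
log2 fold change in transgenic trees between the batch with the highest and the batch with the lowest wildtype mean, for each of the 200 members (points) by wildtype pattern, with all constructs (left) and without a1-8-1, a2-3-2 and the PAL constructs of batch 2 (right). Bars give the median of each pattern, the dashed line gives the median of all genes (0.53 and 0.54), and open circles mark genes with 3 counts or fewer in the lowest batch, whose fitted value depends on the prior count.

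For single genes, the comparison of the highest with the lowest wildtype batch gave the following values in transgenic trees. Potri.018G122600 gave 10.26 ± 1.35 (SE, adjusted p = 3.23e-07) for batch 5 over batch 6. Other rows of its set held more counts in batch 6, as given above, so this value does not stand for the set. Potri.017G120200 gave 9.44 ± 0.25 (SE, adjusted p = 6.27e-29) for batch 2 over batch 6. For Potri.014G186200, 10976 of 10990 counts of the transgenic libraries of batch 6 came from i24-5-1. Its value for batch 4 over batch 6 was 8.10 ± 1.49 (SE, adjusted p = 2.29e-05) with all constructs. Without a13-6-2, i24-5-1 and i53-7-1, where 12 counts remained, the fitted value was 17.31 ± 1.21 (SE). For Potri.014G185600, a13-6-2 held 70668 of 77093 counts in the transgenic libraries of batch 6. The value was 4.13 ± 1.12 (SE, adjusted p = 0.00223) with all constructs and 10.09 ± 0.87 (SE) without the same 3 libraries. These 3 libraries were left out because of their counts of these members, so the larger values follow from the choice and are a description. Other pairs of batches gave 7.38 ± 0.97 (SE, adjusted p = 9.21e-07) for Potri.001G412500, as batch 2 over batch 5. For Potri.002G188000 the value was 6.34 ± 0.81 (SE, adjusted p = 1.11e-06), as batch 1 over batch 3. Potri.005G018400 gave 5.68 ± 0.89 (SE, adjusted p = 1.72e-06) for batch 4 over batch 6. The gene ranked first, Potri.005G139000, gave 5.58 ± 1.03 (SE, adjusted p = 1.09e-05) for batch 2 over batch 4. Without the libraries that stand apart, which were chosen by their values on the members, it gave 6.31 ± 0.30 (SE), as a description.

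Smaller differences in the direction of wildtype passed for 7 further genes. Potri.T004700 gave 4.28 ± 0.50 (SE, adjusted p = 1.92e-09) for batch 2 over batch 4, and Potri.005G093800, of the same pattern, gave 3.36 ± 0.56 (SE, adjusted p = 5.31e-06) for batch 6 over batch 4. Potri.015G074600 gave 4.04 ± 0.45 (SE, adjusted p = 1.74e-08) for batch 1 over batch 5. Potri.018G109700 gave 3.59 ± 0.37 (SE, adjusted p = 1.18e-09) for batch 1 over batch 2. Potri.001G209300 gave 3.35 ± 0.53 (SE, adjusted p = 5.43e-05) for batch 3 over batch 1. Potri.002G087000 gave 3.02 ± 0.39 (SE, adjusted p = 4.14e-08) for batch 6 over batch 4, and Potri.004G029400 gave 2.30 ± 0.21 (SE, adjusted p = 3.00e-11) for batch 1 over batch 6. A further 4 genes did not pass with all constructs. Potri.002G189100 gave 3.34 ± 1.37 (SE, adjusted p = 0.0539) for batch 5 over batch 1, and 8.69 ± 0.66 (SE) without the libraries that stand apart. Potri.009G156700 gave 0.75 ± 0.63 (SE, adjusted p = 0.317) for batch 3 over batch 2, and 4.48 ± 0.39 (SE) without them. Potri.019G122100 gave 1.36 ± 0.66 (SE, adjusted p = 0.117) for batch 5 over batch 2, and 5.59 ± 0.46 (SE) without them. Potri.016G057400 gave 3.05 ± 1.24 (SE, adjusted p = 0.0564) for batch 4 over batch 3, and 3.07 ± 1.19 (SE) without them. The values without these libraries are a description, since the libraries were chosen by their values on the members.

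For 3 neighbouring members, Potri.014G186300, Potri.014G186400 and Potri.014G186500, the transgenic libraries of batch 6 held 2 counts each in all. With these set to a floor of 3 counts, the pooled level of batch 4 was 83179.7 to 83181.7-fold higher. Such a ratio depends on the floor and pools all libraries of a batch, so it is not a bound on the difference between single libraries. Potri.005G163400 had 0 counts in the transgenic libraries of batch 1 without a1-8-1 and a2-3-2, and against the same floor the pooled level of batch 3 was 1390.4-fold higher. With these genes at the ratios so obtained, the medians above did not change, because each ratio lies above the median of its pattern and of all members.

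Within batch 2, the PAL constructs (5, in 27 libraries) could be compared with the regulator constructs (7, in 63 libraries) without any wildtype library. PAL constructs were higher for 139 of the 200 genes and lower for 7 at an adjusted p under 0.05 (edgeR quasi-likelihood test on sums per construct). Over all 29901 genes tested, 6.40% were higher and 3.03% lower. With 1 row per set, 33 of the 87 sets were higher and 7 lower. The median log2 fold change was 3.96 over the members, 0.18 over 1 row per set and -0.02 over all genes. All 104 genes high in wildtype batches 3, 4 and 5 were higher in PAL constructs, with a median of 4.70, and with 1 row per set all 16 were, with a median of 4.35. Of the 28 genes high in batch 4 alone, 19 were higher and 0 lower, and of the 19 high in every batch but 6, 4 were higher and 4 lower. Both genes high in batches 1 and 2 were lower in PAL constructs. None of the 24 genes high in batches 1, 3 and 4, in batches 2, 5 and 6, in every batch but 3, in batch 1 alone or in batches 1 and 4 was called.

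The libraries of both kinds did not overlap at all for 116 members in 23 sets that were higher in PAL constructs, beside 1.02% of all genes, and for 2 members that were lower, beside 0.104%. For single genes, the log2 fold change of PAL over regulator constructs was 7.60 ± 0.27 (SE, adjusted p = 3.69e-10) for Potri.002G189100. It was 6.18 ± 0.16 (SE, adjusted p = 1.34e-11) for Potri.018G122600 and 4.56 ± 0.25 (SE, adjusted p = 1.67e-08) for Potri.005G018400, of the 2 sets shown above. Potri.009G156700, high in wildtype batch 3 alone, gave 4.91 ± 0.23 (SE, adjusted p = 4.76e-09), and Potri.019G122100 gave 5.44 ± 0.38 (SE, adjusted p = 1.76e-07). The 2 members without overlap that were lower were Potri.001G412500, at -8.43 ± 0.59 (SE, adjusted p = 1.80e-07), and Potri.005G139000, at -5.97 ± 0.16 (SE, adjusted p = 1.97e-11). Potri.017G120200 was also called lower, at -0.54 ± 0.12 (SE, adjusted p = 0.00827), although its libraries overlapped, as was Potri.004G029400, at -0.93 ± 0.11 (SE, adjusted p = 3.97e-05), with overlap as well. Among genes that did not pass, Potri.T004700 gave 0.03 ± 0.19 (SE, adjusted p = 0.969) and Potri.005G093800 0.10 ± 0.23 (SE, adjusted p = 0.887), while Potri.002G087000 gave 0.09 ± 0.18 (SE, adjusted p = 0.87) and Potri.014G185600 -0.65 ± 0.61 (SE, adjusted p = 0.686). Potri.016G057400, with a larger error, gave -2.47 ± 1.22 (SE, adjusted p = 0.322). PAL and regulator libraries also differed in depth and in the share of equal neighbouring pairs given above, and within batch 2 the kind of construct, the depth, the share of equal pairs and the planting and harvest of the trees cannot be told apart.

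**Figure D5:**
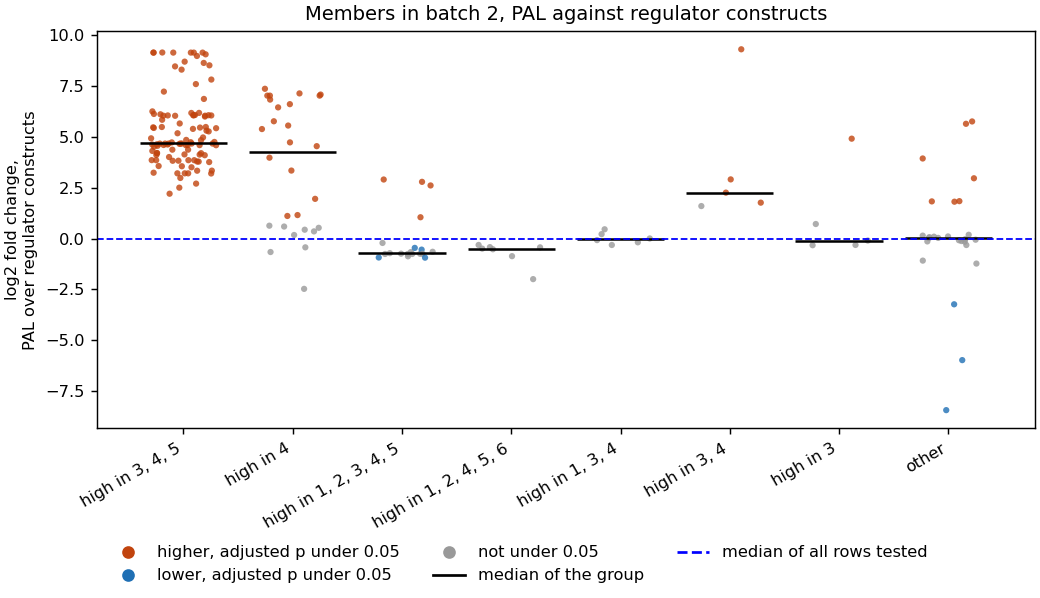
log2 fold change of PAL over regulator constructs in batch 2 for each of the 200 members (points), by wildtype pattern, with bars for the median of the pattern and a dashed line for the median of all genes (-0.02). The 104 genes high in batches 3, 4 and 5 are all higher (median 4.70), and the 6 genes high in batches 1, 3 and 4 have a median of -0.03.

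Each construct was then set against the other constructs of its batch, with lines as replicates, for the 42 constructs with more than 1 line. Comparisons within a batch share their libraries and are not independent. In batch 1, a1 was higher for 92 members and a2 for 73, while i7 was lower for 60 and o67 for 41. All calls, in either direction, lay in 21 sets for a1, 11 for a2, 15 for i7 and 16 for o67. Over all 35419 genes, 0.968% were higher in a1, 0.791% higher in a2, 1.05% lower in i7 and 0.887% lower in o67. These calls rested on a1-8-1 and a2-3-2, for without them a1 and a2 had 0 members called, i7 1 higher and 0 lower and o67 3 higher and 1 lower. In batch 2, each of the 5 PAL constructs was higher for 128 to 138 members and lower for 3 to 5, and each of the 7 regulator constructs was lower for 72 to 102 and higher for 2 to 21. The calls lay in 29 to 38 sets for a PAL construct and in 17 to 43 for a regulator construct. Over all genes, 3.42 to 6.52% were higher and 0.782 to 2.13% lower in a PAL construct, and 0.796 to 12.6% were lower and 0.429 to 17.8% higher in a regulator construct. Each PAL construct was set against all others of the batch, so that the calls of the 2 kinds mirror each other. The smallest p among members higher in a construct belonged to Potri.018G108900, at 6.02 ± 0.33 (SE, adjusted p = 1.21e-28) in a5, followed by rows of the set of 22 such as Potri.018G117400, at 7.15 ± 0.40 (SE, adjusted p = 1.42e-27) in a5. Among members lower in a construct it belonged to Potri.005G139000, at -4.03 ± 0.46 (SE, adjusted p = 8.25e-12) in i6, followed by Potri.010G208800, at -4.34 ± 0.53 (SE, adjusted p = 7.71e-10) in i15 of batch 6, and Potri.010G020000, at -2.88 ± 0.46 (SE, adjusted p = 9.43e-07) in a43. All 5 PAL constructs, directed at different PAL genes, thus stood on the same side.

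In batches 3 to 6, 19 of the 26 constructs tested had 5 members called or fewer, beside 0.104 to 4.66% of all genes. The other 7 constructs called more members. The knockdown of CAD1 and CAD2 (i35) was higher for 28 members and lower for 1, in 17 sets, where 8.58% of all genes were higher. Of these 28, 17 were genes high in batches 3, 4 and 5, and their median log2 fold change was 0.91. Potri.016G057400 lay between 8.12 and 51.3 CPM (median 24.1) in i35 and between 0 and 114 CPM (median 0.727) in the other constructs of batch 3, a log2 fold change of 3.05 ± 0.80 (SE, adjusted p = 0.00564), against between 0 and 1.07 CPM (median 0.918) in wildtype. Without a1-8-1 and a2-3-2, which also enter the shared estimate of spread, i35 had 63 members called, beside 10.7% of all genes.

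The knockdown of HCT1 and HCT6 (i19) in batch 5 was higher for 26 members and lower for 3, in 28 sets. Over all genes, 18.4% were higher and 7.99% lower. The share of members called in i19 was thus below that of all genes. Of the 26, 13 were among the 28 genes high in batch 4 alone and 4 among the 5 high in batches 3 and 4, while 1 gene high in batch 4 alone was lower. Potri.016G057400 lay between 1.31 and 571 CPM (median 5.43) in i19 and between 0.192 and 78.1 CPM (median 2.69) in the other constructs, against between 0.567 and 16.2 CPM (median 4.91) in wildtype, a log2 fold change of 4.29 ± 0.77 (SE, adjusted p = 1.01e-05). Potri.001G145200 lay between 0.185 and 183 CPM (median 1.65) in i19 and between 0 and 15.4 CPM (median 0.798) in the others, a log2 fold change of 4.67 ± 0.65 (SE, adjusted p = 4.43e-08). Potri.018G109700 lay between 3.10 and 174 CPM (median 5.42) in i19 and between 1.75 and 23.3 CPM (median 5.89) in the others, a log2 fold change of 1.82 ± 0.37 (SE, adjusted p = 1.07e-04). For Potri.016G057400 and Potri.018G109700 the highest libraries of i19 came from 1 line, i19-7. Without that line i19 was higher for 3 members and lower for 0, with 0.84 ± 0.88 (SE, adjusted p = 0.78) for Potri.016G057400, 0.03 ± 0.77 (SE, adjusted p = 1) for Potri.001G145200 and -0.30 ± 0.42 (SE, adjusted p = 0.864) for Potri.018G109700. Over all genes, 0.528% were called in i19 without that line. Without a1-8-1 and a2-3-2, i19 had 45 members called, beside 27.5% of all genes.

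In batch 6, the knockdown of 4CL3 and 4CL5 (i15) was higher for 35 members and lower for 39, in 50 sets. Over all genes, 28.2% were higher and 28.4% lower. The share of members called in i15 was thus below that of all genes. The 3 genes high in batches 2, 5 and 6 were all lower. Of these, Potri.T004700 lay between 0 and 1.48 CPM (median 0.336) in i15 and between 0 and 21.3 CPM (median 9.55) in the other constructs, against between 10.6 and 13.7 CPM (median 11.0) in wildtype, a log2 fold change of -4.05 ± 0.72 (SE, adjusted p = 2.94e-06). Potri.005G093800 lay between 0 and 2.58 CPM (median 0.719) in i15 and between 0 and 25.3 CPM (median 11.1) in the others, against between 15.0 and 17.3 CPM (median 15.4) in wildtype, a log2 fold change of -3.24 ± 0.61 (SE, adjusted p = 6.94e-06). Potri.002G188000 lay between 0.114 and 7.26 CPM (median 0.875) in i15 and between 0.207 and 148 CPM (median 47.9) in the others, against between 11.4 and 23.0 CPM (median 19.3) in wildtype, a log2 fold change of -4.40 ± 0.85 (SE, adjusted p = 1.06e-05). It is 1 of the 7 genes low in wildtype batch 3 alone, of which 6 were lower in i15. On the other side, all 3 genes high in every batch but 2 were higher in i15. One of them, Potri.018G075200, lay between 5.53 and 57.8 CPM (median 37.0) in i15 and between 0 and 40.02 CPM (median 2.74) in the others, a log2 fold change of 2.94 ± 0.52 (SE, adjusted p = 2.50e-06). Of the 6 genes high in batches 1, 3 and 4, 1 was lower (-1.68) and 4 were higher, among them Potri.018G109700, which lay between 27.3 and 49.1 CPM (median 34.4) in i15 and between 1.66 and 94.9 CPM (median 4.10) in the others, a log2 fold change of 2.07 ± 0.40 (SE, adjusted p = 1.12e-05).

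The knockdown of CCoAOMT1 and CCoAOMT2 (i24) was higher for 20 members and lower for 26, in 37 sets. Over all genes, 14.6% were higher and 15.9% lower, so the share of members called in i24 was below that of all genes. Some patterns were called in the direction opposite to that in i15. The 3 genes high in every batch but 2 were lower in i24, and 2 of the 3 genes high in batches 2, 5 and 6 were higher. Potri.018G075200 lay between 0 and 0.405 CPM (median 0.174) in i24 and between 0.341 and 57.8 CPM (median 7.19) in the other constructs, against between 3.15 and 16.4 CPM (median 4.91) in wildtype, a log2 fold change of -5.66 ± 0.91 (SE, adjusted p = 2.53e-06). Potri.005G093800 lay between 12.0 and 25.3 CPM (median 20.5) in i24 and between 0 and 24.99 CPM (median 7.74) in the others, a log2 fold change of 1.82 ± 0.35 (SE, adjusted p = 4.74e-05). Since i15 is among the constructs that i24 is set against, and the reverse, the opposite directions share libraries and are given as values only. Of the genes high in batch 4 alone 11 were lower in i24, and of the 6 high in batches 1, 3 and 4, 4 were lower. Counts by pattern in i19, i15 and i24 rest on few genes and are a description.

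Single libraries stood far above the others for some members in batch 6. The knockdown of 4CL5 (a13) was higher for 15 members, beside 0.511% of all genes, that of AldOMT2 (i30) for 10, beside 1.58%, and that of 4CL3 (a12) for 8, beside 1.29%. All calls, in either direction, lay in 5 sets for a13, 3 for i30 and 8 for a12. Potri.014G186100 had 6033 CPM in the library a13-6-2 and 488 CPM in i24-5-1, and no other library of batch 6 exceeded 0.21 CPM. Potri.001G040800, of the set of 9 rows, had 155 CPM in a13-6-1, 72.9 CPM in i30-1-1 and 33.6 CPM in i24-12-2, and the next library had 2.23 CPM. Without a13-6-1, a13-6-2, i24-5-1 and i30-1-1, a13 had 0 members called and a12 11 higher and 0 lower, while i30 had 14 higher, i24 24 higher and 24 lower and i15 43 higher and 29 lower. The shares of all genes called in either direction were then 0.00283% in a13, 4.36% in a12, 2.78% in i30, 24.3% in i24 and 59.3% in i15.

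Finally, the variance of log2 CPM among 359 transgenic libraries, without 1 library of a12 whose line could not be assigned, was divided into parts for batches, constructs within a batch, lines within a construct and pools within a line, as a description of where the members varied. Batches accounted for 62.6% of the summed variance of the members, against 38.3% over all 25804 genes with at least 1 CPM. Constructs accounted for 19.3%, against 14.4% over all genes. Lines and pools accounted for 4.18 and 13.9%, against 15.4 and 31.9% over all genes. With the PAL constructs of batch 2 treated as a batch of their own, the shares of the members were 79.5% for batches, 2.59% for constructs, 4.15% for lines and 13.8% for pools, against 42.8, 9.71, 15.5 and 32.1% over all genes. Leaving out 1 batch at a time gave 54.9 to 79.9% for batches and 2.89 to 25.1% for constructs, and the highest batch share and the lowest construct share came without batch 2.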

How the data were processed

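RNA was taken from stem-differentiating xylem of 360 transgenic and 18 wildtype pools of trees. According to the study's methods and the labels, the authors prepared TruSeq libraries, sequenced them on an Illumina Genome Analyzer IIx, aligned reads with TopHat and Bowtie to the P. trichocarpa genome v3.0 and counted reads per gene with BedTools, and the deposited values are raw counts per gene (41334 rows, 378 columns). Versions of the aligners and the treatment of reads matching several genes are not given in the sources used here. Columns were matched to libraries by name, save 1. The name of that column, of construct a12 in batch 6, matched no single title, so it was used as a library of a12 with no line and left out of the sums per line and the variance components.

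Counts were scaled by TMM in edgeR 4.0.16 (R 4.3.3), over the wildtype libraries for the choice of members. The CPM given for single libraries and constructs were scaled over all 378 libraries. For the tests and the variance components, scaling used only the transgenic sums or libraries that entered each fit. Totals ranged from 2.12 to 93.5 M, which limits the precision of low genes in shallow libraries. For the tests, counts were summed per construct (batches, and PAL against regulator constructs) or per line (each construct), low genes were removed with filterByExpr, and quasi-likelihood F tests were fitted over all genes with Benjamini-Hochberg adjustment and a threshold of 0.05. Construct sums treat constructs of a batch as replicates, so p-values measure the spread between constructs. A sum gives deeper libraries more weight. Variance components used log2 CPM with a prior count of 2 and genes of at least 1 CPM. The edgeR tests and the variance components were tested on simulated data. Alternatives were DESeq2 1.42.0, other scaling, filters and replicate units, and leaving out libraries or constructs. Leaving out the libraries that stand apart, the PAL constructs, the line i19-7 and libraries of batch 6 was chosen after seeing the data.

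The members, lists and tests were chosen with earlier results of these data known. Named genes were the 10 members ranked highest, for each batch the 2 ranked highest among those with their highest or lowest wildtype mean there, the 3 with the smallest p in each direction of the batch 2 and construct comparisons, and those at the limit of the choice. Rows of 1 set of near-identical counts were named once, which departs from that rule, and further genes (Potri.001G145200, Potri.018G075200, Potri.014G186100, Potri.001G040800, Potri.014G186300 to Potri.014G186500 and Potri.005G163400) were named after their values were seen. Of the 41334 identifiers, 0 matched the annotation table used for names, so gene lists, cell type markers, target checks and sequences are not reported here. Tables were handled with Python 3.11.15, pandas 2.3.3 and NumPy 2.4.6, and figures drawn with matplotlib 3.10.9.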

Additional observations from a re-analysis of the deposited data

Results flagged for a closer look

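Construct means of 19 named members, and the share of the 104 genes above the midpoint of their wildtype gap, were searched for constructs far from the rest in 7 groups of 4 to 7 constructs. Dixon's criterion marked 21 of 140 searches. Its limits, set for 1 in 20 by chance, assume normally distributed values, which mean CPM set by single libraries need not be. The searches also share constructs, so the number marked is not set against chance. Values are the mean CPM over the libraries of a construct, with the nearest other construct after it.

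In batch 1, i7 had 412 CPM of Potri.014G186200 (next 87.5) and 36.0 CPM of Potri.001G412500 (next 10.8) as well as 291 CPM of Potri.014G185600 (next 47.7), and o67 had 14.0 CPM of Potri.001G209300 (next 3.01) and 20.6 CPM of Potri.002G087000 (next 10.1). In batch 2, the PAL construct i8 had 98.2% of the 104 genes on the upper side, beside 100% in the nearest construct, and a3 had 100 CPM of Potri.002G087000 (next 60.7). Among regulator constructs of batch 2, a44 had 3610 CPM of Potri.014G186200 (next 1550), i45 had 4.15 CPM of Potri.005G018400 (next 2.25) and a43 had 42 CPM of Potri.016G057400 (next 11.5).

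In batch 5, i19 had 96.3 CPM of Potri.016G057400 (next 13.7) and 24.5 CPM of Potri.018G109700 (next 9.2), both carried by the line i19-7, while a17 had 201 CPM of Potri.002G188000 (next 89.7) and a27 had 17.3 CPM of Potri.017G120200 (next 12.7). Among regulator constructs of batch 5, i56 had 172 CPM of Potri.014G185600 (next 31.3) and a54 the lowest level of Potri.004G029400, 14.2 CPM (next 16.0). In batch 6, i24 had 40.7 CPM of Potri.014G186200 (next 0.044), carried by the library i24-5-1, and a13 had 454 CPM of Potri.014G185600 (next 2.25), where a13-6-2 stood highest. In the same batch, i15 had 52.8 CPM of Potri.001G209300 (next 19.3) and 9.16 CPM of Potri.004G029400 (next 6.02), and the lowest level of Potri.002G087000, 5.11 CPM (next 41.8).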

How the results depend on the processing

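The choice of members depended on its settings: 123 of the 200 genes were shared with a minimum of 10 CPM, 124 to 152 when 1 wildtype replicate of each batch was left out, 141 with 5 CPM added in place of 1, and 174 to 200 in the other 6 settings. In the own pair of batches, 135 to 188 members were called under other tools, filters and replicate units, and 121 to 145 when 1 construct of batch 1 or 4 was left out. With monolignol constructs only, where batch 2 holds PAL constructs alone, Potri.001G412500 turned to -0.07 (adjusted p = 0.949) and Potri.005G139000 fell short of the threshold at 0.39 (adjusted p = 0.257), both in edgeR. For the 19 named members in this comparison, 306 other alternative values kept their call, and 15 passed the threshold that the value above did not, for Potri.002G189100, Potri.016G057400, Potri.009G156700 and Potri.019G122100. Without a13-6-2, i24-5-1 and i53-7-1 of batch 6 the count of calls remained 139, while Potri.014G186200 moved to 17.31 and Potri.014G185600 to 10.09. PAL constructs were higher for 135 to 139 members and lower for 6 to 8, and lower for 11 with lines as replicates. The batch share of variance was 79.5% and the construct share 2.59% with PAL constructs as a separate batch, and leaving out 1 batch gave 54.9 to 79.9% and 2.89 to 25.1%, in both cases with the outer value (79.9 and 2.89%) without batch 2. Calls over all constructs numbered 1866, and 1747 to 1921 in the alternatives. Leaving out lines or libraries of 1 batch also changed calls elsewhere through the shared spread, such as 48 for i35 without i19-7 and 26 for a13 without a1-8-1 and a2-3-2. No paired analysis was possible because the construct and line sums carry no replicate number and wildtype values were not tested.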
